A study of Mus musculus with 27 samples.

Results

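Foxe1, Nkx2-1 and Tg are 3 of the 50559 genes in the count table of mouse thyroid gland organoids (mTGOs), and they were chosen by name. FOXE1, a forkhead factor, and NKX2-1, a homeodomain factor, act together with PAX8 and HHEX to set up and maintain the follicular cell of the thyroid, and both bind the promoter of Tg. Tg encodes thyroglobulin, the large secreted protein of the follicle lumen on which thyroid hormone is made. Both factors are also known outside the thyroid, FOXE1 in oral and oesophageal epithelium and in the hair follicle, and NKX2-1 in lung and forebrain.

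Organoids were grown in Matrigel from thyroid gland cells of C57BL/6 mice aged 8-12 weeks, in a medium with EGF, FGF2, Y27632 and B27, and none of the groups carried a genetic change. Non-irradiated organoids were collected at days 5, 7 and 11. Others received 2, 4 or 7 Gy of photons after 5 days of growth and were collected at days 7 and 11, which gives 9 groups of 3 libraries and 27 libraries in all. The labels number the mice 1 to 3, and the design text of the series speaks of 4 mice. The column names carry the identifiers mTG11, mTG12 and mTG14, each present once in every group and called cultures here. The labels do not say what they stand for. Each is taken here as 1 source of cells, and what sets a culture apart cannot be told from these data. Values are CPM, the count of a gene divided by the total of its library and scaled to 1e6. The totals ranged from 2528866 to 5723150 counts, so that 3 counts, taken as the smallest detectable amount, stood for 0.524 to 1.19 CPM. These limits cover counting error only. As bulk libraries, they do not tell fewer cells of a type from less RNA per cell.

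In GRCm39 Foxe1 spans 46343609 to 46346412 of chromosome 4, on the plus strand, with 1 exon. Nkx2-1 spans 56578742 to 56583722 of chromosome 12, on the minus strand, and its canonical transcript has 2 exons. Tg spans 66542602 to 66722570 of chromosome 15, on the plus strand, with 48 exons in its canonical transcript. At least 1 gene on the opposite strand overlaps an exon of each. The counting rule for strand is not given in the sources used here, so that reads of a pair cannot be told apart. Of the overlapping genes, those matched in the count table held few counts over the 27 libraries, 51 for Gm12446 at Foxe1, 4.31 for Gm26973 at Nkx2-1 and 7.08 for Sla at Tg, against 3105, 1327 and 277 for the members themselves. Gm17140, which also overlaps Tg, did not match a symbol of the count table used here.

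The organoids are labelled as thyroid gland, and the genes that define a working follicular cell were mostly at the limit of detection. Pax8, the partner factor of NKX2-1, had 23.2 counts summed over the 27 libraries and no more than 5 in any. Hhex, another of the early thyroid factors, had 28 counts with at most 7 in a library. Slc5a5, the iodide transporter, had 6 counts and Tshr, the receptor for thyrotropin, had 11. Duox2, an oxidase of hormone synthesis, went the other way, with 3033.5 counts. Its mean was 0.515 CPM at day 5 and 64.3 CPM at day 11 without irradiation. Foxe1 and Nkx2-1 had counts in all 27 libraries and Tg in 26. Genes of stratified epithelium were far more abundant, with a sum over the 6 genes of that list of 6886 to 25813 CPM over the libraries. Krt5, a keratin of basal cells, was between 1996 and 6433 CPM over the libraries, and Krt13, a keratin of mucosal epithelium, between 2094 and 5701 CPM.

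Foxe1 was the member with the smallest movement over days and doses. At day 5 its level was 32.7 CPM in culture mTG11, 38.6 in mTG12 and 43.0 in mTG14. At day 7 without irradiation the same cultures had 31.8, 20.4 and 34.7 CPM, and at day 11 they had 30.0, 28.7 and 35.2 CPM. Every culture was lower at days 7 and 11 than at day 5, while the groups overlapped. On CPM by library total, day 5 was the highest of the 9 groups in each culture, whereas on TMM-scaled CPM day 7 without irradiation came first in mTG11, at 31.7 against 31.2 CPM.

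The day comparisons of Foxe1 did not pass the test. For days 5, 7 and 11 the group means were 38.1 ± 5.16, 29.0 ± 7.57 and 31.3 ± 3.44 CPM (SD, n = 3 libraries each). The log2 fold change was -0.25 from day 5 to day 7 (standard error, SE, 0.19, adjusted p = 0.391) and -0.14 from day 5 to day 11 (SE 0.19, adjusted p = 0.573). These are values of the quasi-likelihood test of edgeR, adjusted over all genes tested by Benjamini-Hochberg, as are those that follow. Of all genes tested, 21.6% passed an adjusted p of 0.05 between days 5 and 7, 41.3% between days 5 and 11 and 21.2% between days 7 and 11. For Foxe1 the 95% interval of the change from day 5 to day 11 ran from -0.55 to 0.26.

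In irradiated organoids Foxe1 differed from 0 Gy by less than the spread between libraries. At day 7 it was 25.8 ± 3.16 CPM after 2 Gy, 28.8 ± 2.25 after 4 Gy and 25.7 ± 4.96 after 7 Gy (SD, n = 3 each). At day 11 it was 31.7 ± 3.25 CPM after 2 Gy, 30.1 ± 5.59 after 4 Gy and 28.0 ± 6.10 after 7 Gy (SD, n = 3 each). The 6 log2 fold changes of Foxe1 against 0 Gy of the same day lay between -0.22 and -0.02, with adjusted p from 0.609 to 0.999. Their 95% intervals together spanned -0.61 to 0.35 in this fit without the culture. With the culture as a replicate block they spanned -0.52 to 0.28. Between neighbours in the order of the 9 group means, every pair of groups overlapped, for Foxe1 as for Nkx2-1 and Tg. Such an order sets groups of similar level side by side, so this says little about groups further apart. Nkx2-1 at day 11 without irradiation did not overlap day 5 or day 7 without irradiation. Tg without irradiation did not overlap between days 5 and 7. Foxe1 after 2 Gy did not overlap between days 7 and 11, with a log2 fold change of 0.29 (SE 0.19, adjusted p = 0.350). How many of all genes separate in this way was not counted.

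**Figure D1:**
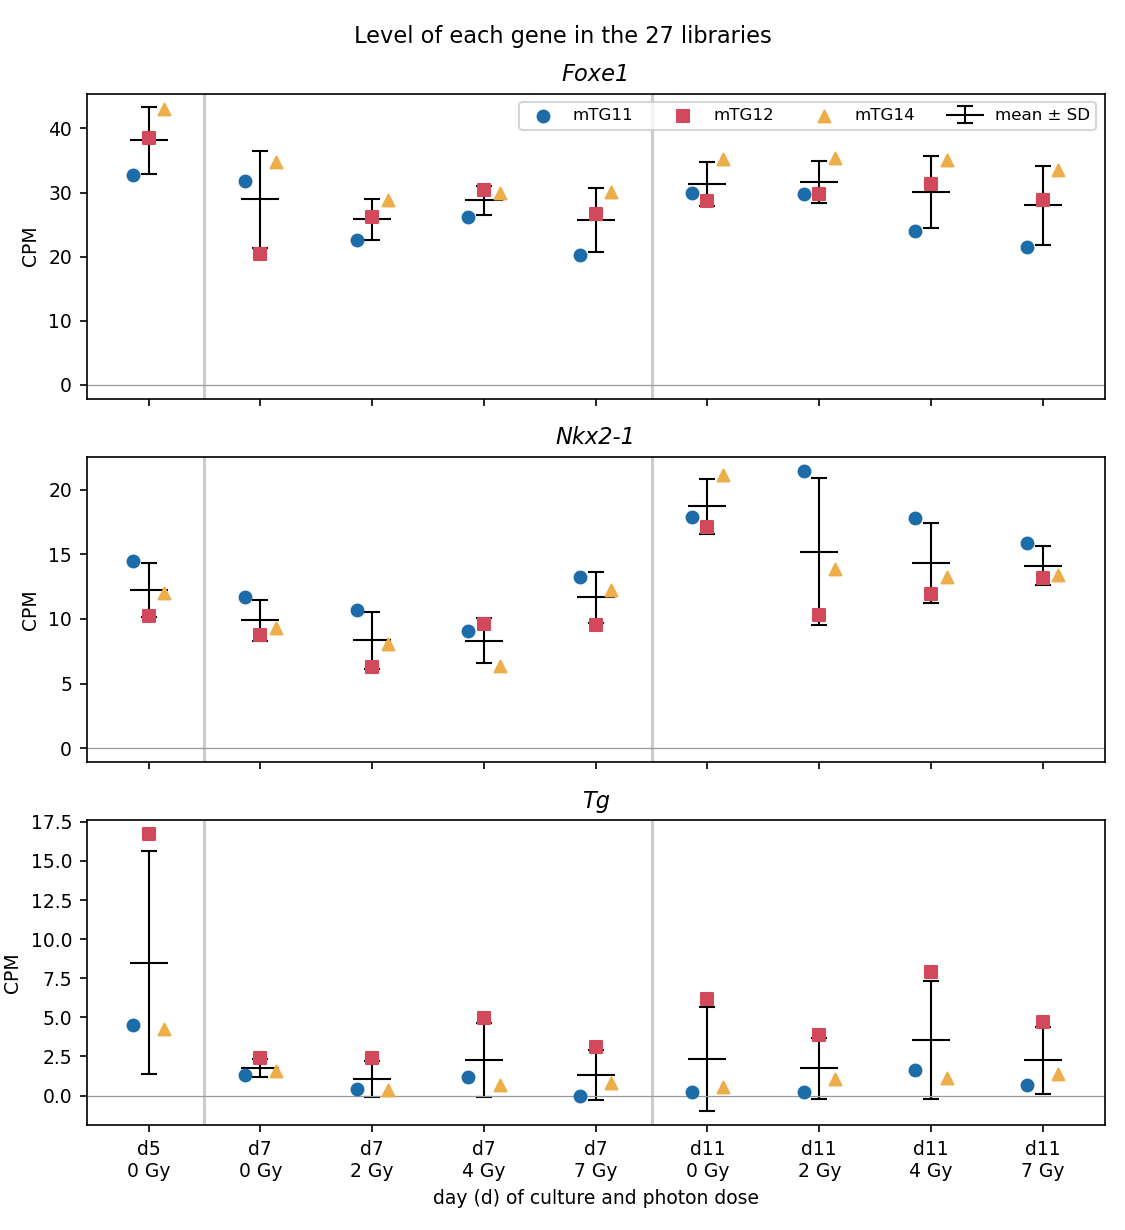
Level in CPM (vertical axis) of Foxe1, Nkx2-1 and Tg in the 27 libraries, by day of culture and photon dose. Symbols mark the 3 cultures, and bars give the mean and SD of the 3 libraries of a group. The mTG12 library is the highest of its group for Tg in 9 of 9 groups, and mTG14 is the highest for Foxe1 in 8 of 9.

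Nkx2-1 was the only member that rose from days 5 and 7 to day 11 under the main test. At day 5 it was 14.5 CPM in mTG11, 10.3 in mTG12 and 12.0 in mTG14, and at day 7 without irradiation 11.7, 8.75 and 9.26 CPM. At day 11 without irradiation the values were 17.9, 17.2 and 21.2 CPM, above every library of days 5 and 7. The rise to day 11 held in each culture. From day 5 to day 7 Nkx2-1 was lower in each culture and did not pass (log2 fold change -0.16, SE 0.20, adjusted p = 0.626). Between days 5 and 11 the log2 fold change was 0.75 (SE 0.19, adjusted p = 0.00635), and between days 7 and 11 it was 0.91 (SE 0.19, adjusted p = 0.00398). When any 1 library was left out, the adjusted p of Nkx2-1 for days 5 and 11 stayed between 0.00501 and 0.0291. Without all libraries of mTG14 it was 0.103, and for days 7 and 11 it was 0.0816.

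Markers of other cells moved over the same days. Of all genes tested, 41.3% passed between days 5 and 11, 3917 of them higher and 3702 lower. The lists are short, and their counts are to be read beside that share. From day 5 to day 11 without irradiation all 6 genes of stratified epithelium fell, and their summed level was 20520 to 25813 CPM at day 5 and 7039 to 8896 CPM at day 11. Of the airway genes 2 of 4 tested fell, Scgb1a1 and Scgb3a2, with a summed list of 32.2 to 79.6 CPM and then 7.51 to 25.3 CPM. Most of that sum was Scgb3a2, with a mean of 46.3 CPM at day 5 and 4.45 CPM at day 11, and Muc5b, a mucin gene of the list, had 3.17 and then 9.29 CPM (adjusted p = 0.0949). The 4 multiciliated genes rose from 0 in every library of day 5 to a sum of 18.1 to 41.2 CPM. Of the fibroblast genes 3 of 5 fell, and the sum was 28.3 to 105 CPM and then 5.24 to 37.0 CPM. The part of these cells in the rise of Nkx2-1 was not tested.

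The difference of Nkx2-1 between days 7 and 11 also passed the test after 2 and 4 Gy, and after 7 Gy it did not. Following 2 Gy, Nkx2-1 was at 10.7, 6.32 and 8.03 CPM in mTG11, mTG12 and mTG14 at day 7 and at 21.5, 10.3 and 13.8 CPM at day 11, a log2 fold change of 0.92 (SE 0.26, adjusted p = 0.0137). Following 4 Gy it was at 9.04, 9.58 and 6.34 CPM at day 7 and at 17.8, 11.9 and 13.2 CPM at day 11, a log2 fold change of 0.83 (SE 0.24, adjusted p = 0.0208). Following 7 Gy it was at 13.3, 9.51 and 12.2 CPM at day 7 and at 15.9, 13.1 and 13.4 CPM at day 11, a log2 fold change of 0.28 (SE 0.23, adjusted p = 0.502). At each of these doses every culture was higher at day 11, with groups that did not overlap at 4 Gy and did at 2 and 7 Gy. Of all genes tested, 17.2% passed between days 7 and 11 at 2 Gy, 17.1% at 4 Gy and 12.3% at 7 Gy. The Nkx2-1 calls at 2 and 4 Gy were each lost in 2 of the 6 fits that left out 1 library: at 2 Gy without the day 7 library of mTG12 (adjusted p = 0.115) or the day 11 library of mTG11 (0.133), and at 4 Gy without the day 7 library of mTG14 (0.0852) or the day 11 library of mTG11 (0.112). They were also lost without all libraries of mTG11 (0.0537 at 2 Gy and 0.0892 at 4 Gy) or of mTG14 (0.0823 and 0.177), and at 2 Gy when only the groups compared entered the fit (0.0542).

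Against 0 Gy of the same day, 7 Gy went with a higher Nkx2-1 in all 3 cultures at day 7 and with a lower one in all 3 at day 11. The differences in mTG11, mTG12 and mTG14 were 1.56, 0.76 and 2.98 CPM at day 7 and -1.96, -4.02 and -7.79 CPM at day 11. Counting alone gives a library an SD of 1.61 CPM at 0 Gy and 1.74 at 7 Gy of day 7, and of 2.21 and 1.73 at day 11. The log2 fold change of Nkx2-1 was 0.23 at day 7 (SE 0.22, adjusted p = 0.603) and -0.44 at day 11 (SE 0.23, adjusted p = 0.406), and neither passed the test. The difference of these responses, which is also the difference of the change from day 7 to day 11 between 7 and 0 Gy, was -0.64 (95% interval -1.32 to 0.05). It was tested directly in 1 fit of the 24 libraries of days 7 and 11 and did not pass (adjusted p = 0.408), where 3.01% of all genes did. At 2 Gy the log2 fold change of Nkx2-1 was -0.32 at both days (adjusted p = 0.789 at day 7 and 0.952 at day 11), and at 4 Gy it was -0.30 at day 7 (adjusted p = 0.587) and -0.41 at day 11 (adjusted p = 0.750). The 12 libraries of day 11 ranged from 10.3 to 21.5 CPM and the 12 of day 7 from 6.32 to 13.3 CPM.

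No member passed any test of dose. Of all genes tested at day 7, 0.124% passed at 2 Gy, 1.63% at 4 Gy, 6.95% at 7 Gy and 2.91% in the test for any difference among the 4 doses. At day 11 the shares were 0% at 2 Gy, 0.00502% at 4 Gy, 1.52% at 7 Gy and 0.658% for any difference. At 2 Gy of day 11 that is 0 genes of 19901 with edgeR, with 1158 at an unadjusted p under 0.05, and 1 gene with DESeq2. These fits leave the culture out. In their 24 dose tests of the 3 members, counting the tests over all doses, 0 had an unadjusted p under 0.05 with edgeR and 0 with DESeq2. The smallest adjusted p was 0.393 with edgeR. With the culture as a replicate block in edgeR, Nkx2-1 at day 11 had an unadjusted p of 0.0271 at 7 Gy (95% interval -0.81 to -0.06, adjusted p = 0.182). At 4 Gy of day 11 that fit gave Nkx2-1 0.0409 (95% interval -0.80 to -0.02, adjusted p = 0.419). In the test over all doses of day 7, Foxe1 had an adjusted p of 0.894, Nkx2-1 of 0.393 and Tg of 0.908. At day 11 Foxe1 had 0.911, Nkx2-1 0.727 and Tg 0.966.

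**Figure D2:**
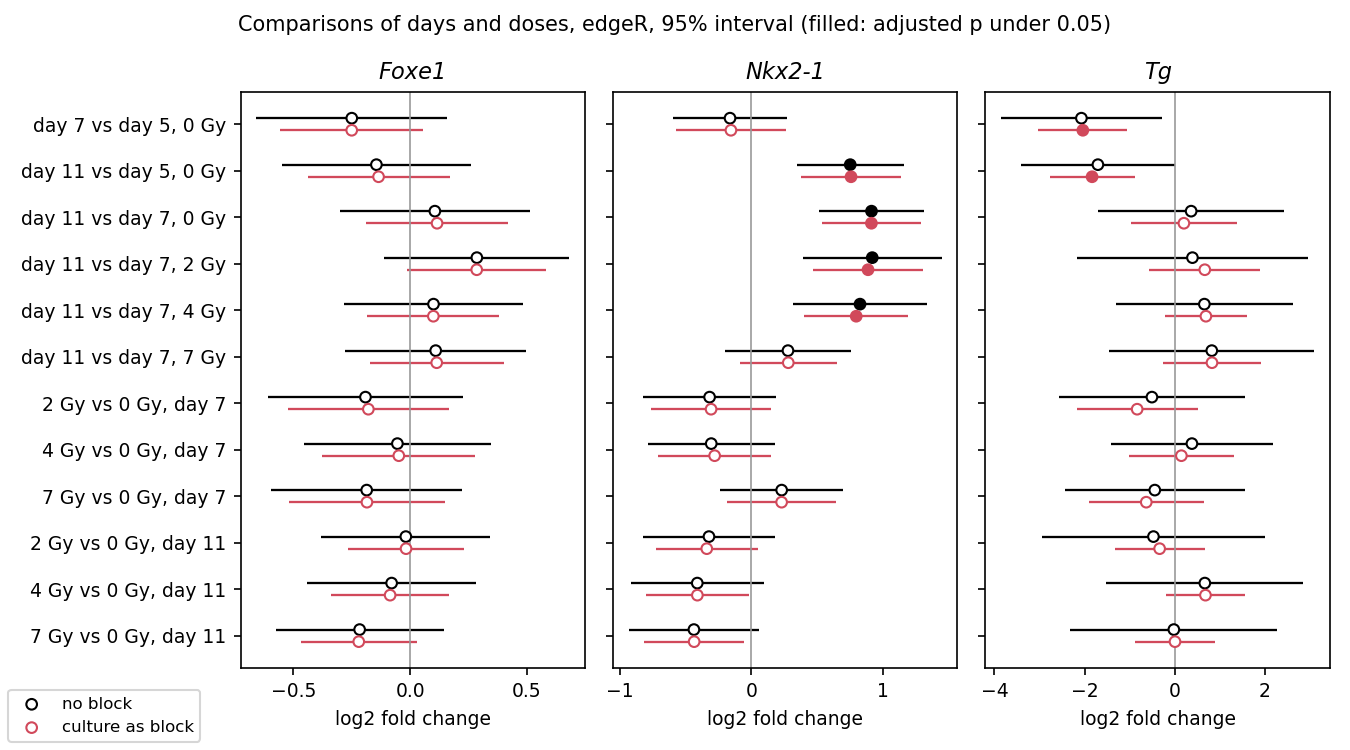
Log2 fold change (horizontal axis) of Foxe1, Nkx2-1 and Tg in 12 comparisons of days and doses from edgeR, with 95% intervals, without (black) and with (red) the culture as a block. Filled points had an adjusted p under 0.05, which is the case for Nkx2-1 between days 5 and 11 at 0 Gy and between days 7 and 11 at 0, 2 and 4 Gy but not 7 Gy, and for Tg between day 5 and days 7 and 11 with the block only.

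Tg was low, and most of it came from 1 culture. Over the 27 libraries it had 277 counts, of which 199 were in the 9 libraries of mTG12, 35 in mTG11 and 43 in mTG14. That is 71.8% of the Tg counts in mTG12, which held 35.5% of all counts. There were 8 libraries with at most 3 Tg counts, and 1 of these, mTG11 at day 7 after 7 Gy, had 0, which allows up to the 3 counts of the detection limit. In all 9 groups the mTG12 library was the highest. Its level was between 1.68 times (day 7, 0 Gy) and 15.7 times (day 11, 0 Gy) the mean of the other 2 libraries of the group, with a median of 5.78 times. At day 11 without irradiation the other 2 libraries together held 3 Tg counts, so that this largest ratio rests on very few reads.

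The spread of Tg between libraries was wide in most groups. At day 5 Tg had 13, 44 and 15 counts in mTG11, mTG12 and mTG14, or 4.48, 16.7 and 4.28 CPM. At day 7 without irradiation the counts were 5, 9 and 6, or 1.30, 2.39 and 1.54 CPM, and these 3 libraries lay closest together. At day 11 without irradiation the counts were 1, 23 and 2, or 0.238, 6.17 and 0.550 CPM. The group mean was 8.49 ± 7.13 CPM at day 5, 1.74 ± 0.57 at day 7 and 2.32 ± 3.34 at day 11 (SD, n = 3 each). The ratio of the SD to the SD that counting alone gives had a median of 3.04 over the 9 groups for Tg, 1.44 for Foxe1 and 1.12 for Nkx2-1, and for Tg it was under 1 in the day 7 group at 0 Gy. The coefficient of variation (SD over mean) of Tg ran from 32.6% to 144% over the groups, against 7.80% to 26.1% for Foxe1 and 10.8% to 37.5% for Nkx2-1.

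edgeR's estimate of the biological coefficient of variation, the spread beyond counting error over all 27 libraries, was 0.854 for Tg. The trend over genes of its abundance gave 0.243, and 94.7% of the 22220 genes tested had a lower value than Tg. For Foxe1 it was 0.134 (percentile 48.7) and for Nkx2-1 0.158 (percentile 55.3), both near the trend. When the culture entered the model, the estimate for Tg was 0.178 with a trend value of 0.168, for Foxe1 0.0716 and for Nkx2-1 0.0862.

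Each member differed among the 3 cultures, in a fit of all 27 libraries with the group as the other term. The 9 libraries of a culture are taken to share their source, so that this compares these 3 cultures only. Of all genes tested, 9.41% passed the test for any difference among cultures. Tg had an adjusted p of 6.48e-08, Foxe1 of 0.00625 and Nkx2-1 of 0.0110. Tg had a log2 fold change of 2.43 in mTG12 against mTG11 (SE 0.27, adjusted p = 2.19e-07) and of 2.13 against mTG14 (SE 0.26, adjusted p = 3.90e-06). Between mTG14 and mTG11 the change of Tg was 0.29 (SE 0.35, adjusted p = 0.819). In the 9 libraries without irradiation alone, the difference of Tg between mTG12 and mTG11 was 2.10 (adjusted p = 0.0362) and that between mTG12 and mTG14 was 1.94 (adjusted p = 0.107).

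The factors followed other cultures than Tg did. Foxe1 was highest in mTG14 in 8 of 9 groups and lowest in mTG11 in 7 of 9. It was higher in mTG14 than in mTG11 by 0.36 (SE 0.08, adjusted p = 0.00557), and over its 9 groups it ranged from 28.8 to 43.0 CPM in mTG14 and from 20.3 to 32.7 CPM in mTG11. Nkx2-1 was highest in mTG11 in 7 of 9 groups and lowest in mTG12 in 8 of 9. Its log2 fold change in mTG12 against mTG11 was -0.46 (SE 0.10, adjusted p = 0.00408). Among all genes, 9.1% passed between mTG12 and mTG11, 3.58% between mTG14 and mTG11 and 3.49% between mTG12 and mTG14. The differences among cultures passed in the 18 irradiated libraries alone for Foxe1 (adjusted p = 0.00577) and Nkx2-1 (adjusted p = 0.0240), and in the 9 others the adjusted p was 0.358 for Foxe1 and 0.774 for Nkx2-1. With DESeq2 the Nkx2-1 test over cultures had an adjusted p of 0.0565.

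Within each culture, Tg at day 5 stood above all 8 later groups. In mTG11 it was 4.48 CPM at day 5 and between 0 and 1.62 CPM later, in mTG12 it was 16.7 CPM and then between 2.39 and 7.87 CPM, and in mTG14 it was 4.28 CPM and then between 0.365 and 1.54 CPM. In the fit without the culture the log2 fold change of Tg was -2.07 from day 5 to day 7 (SE 0.82, adjusted p = 0.0939) and -1.70 from day 5 to day 11 (SE 0.78, adjusted p = 0.102), and neither passed. With the culture as a replicate block the changes were -2.04 (SE 0.46, adjusted p = 0.00495) and -1.83 (SE 0.44, adjusted p = 0.00378), and both passed, as did 25% and 43.6% of all genes in these fits. Between days 5 and 7 Tg also passed with no filter on low counts (adjusted p = 1.38e-05), with only the groups compared in the fit (0.0336) and with DESeq2 (0.0446). From day 7 to day 11 the change with the block was 0.21 (adjusted p = 0.838). For day 11 against day 5 the value without the block turned on mTG12. Leaving out its day 11 library gave -4.15 (adjusted p = 0.00348), and leaving out its day 5 library gave -0.81 (adjusted p = 0.484).

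The irradiated groups of Tg repeated the pattern of the cultures. At day 7 the counts in mTG11, mTG12 and mTG14 were 1, 11 and 1 after 2 Gy, 4, 25 and 3 after 4 Gy, and 0, 12 and 3 after 7 Gy. At day 11 they were 1, 14 and 4 after 2 Gy, 6, 35 and 4 after 4 Gy, and 4, 26 and 5 after 7 Gy. The group means of Tg ran from 1.05 ± 1.16 CPM (day 7, 2 Gy) to 3.53 ± 3.77 CPM (day 11, 4 Gy, SD, n = 3 each). The 6 log2 fold changes against 0 Gy of the same day lay between -0.50 and 0.67 with adjusted p of at least 0.837. Their 95% intervals together spanned -2.94 to 2.85, and with the culture as a replicate block -2.17 to 1.55, where no dose comparison of Tg passed either.

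Markers of other cells also differed among the cultures. Of all genes tested, 9.41% passed the test for any difference, 9.1% between mTG12 and mTG11 and 3.49% between mTG12 and mTG14. The lists are short, and their counts are to be read beside these shares. Of the 5 fibroblast genes, 4 (Col1a1, Col1a2, Col3a1 and Dcn) passed the test for any difference among cultures, and none of the 5 was at 0 throughout. The summed level of the list was 5.24 to 44.9 CPM over the libraries of mTG11, 37.0 to 142 CPM in mTG12 and 26.1 to 106 CPM in mTG14. Col1a1, a fibrillar collagen gene, was higher in mTG12 than in mTG11 by 2.17 and than in mTG14 by 0.77 on the log2 scale (adjusted p = 3.94e-09 and 0.00354). Between mTG12 and mTG14 2 of the 5 fibroblast genes passed, Col1a1 higher and Dcn lower in mTG12. Of the 3 parathyroid genes, Pth, the parathyroid hormone gene, passed, with 12 of its 41 counts in the mTG12 library of day 5, while Gcm2, the defining factor of that gland, was at 0 in every library. The summed parathyroid list reached 4.56 CPM in mTG12, 0.540 in mTG11 and 0.819 in mTG14. Chga, a marker of neuroendocrine cells such as the C cell, had 25.5 counts, none of them in mTG11, and passed between mTG12 and mTG11 (adjusted p = 0.0227). Scgb3a2, a secretory gene of the airway where NKX2-1 also acts, had a log2 fold change of -1.16 in mTG12 against mTG11 (adjusted p = 0.000110), while the median over the 6 airway genes was 0.88. Of the other lists, the test passed for 1 of 4 C cell genes, 3 of 6 airway genes, 1 of 4 multiciliated genes, 4 of 6 genes of stratified epithelium, 1 of 2 leukocyte genes and 0 of the 1 endothelial gene tested. The part of these cells in the levels of Tg, Foxe1 and Nkx2-1 was not tested.

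**Figure D3:**
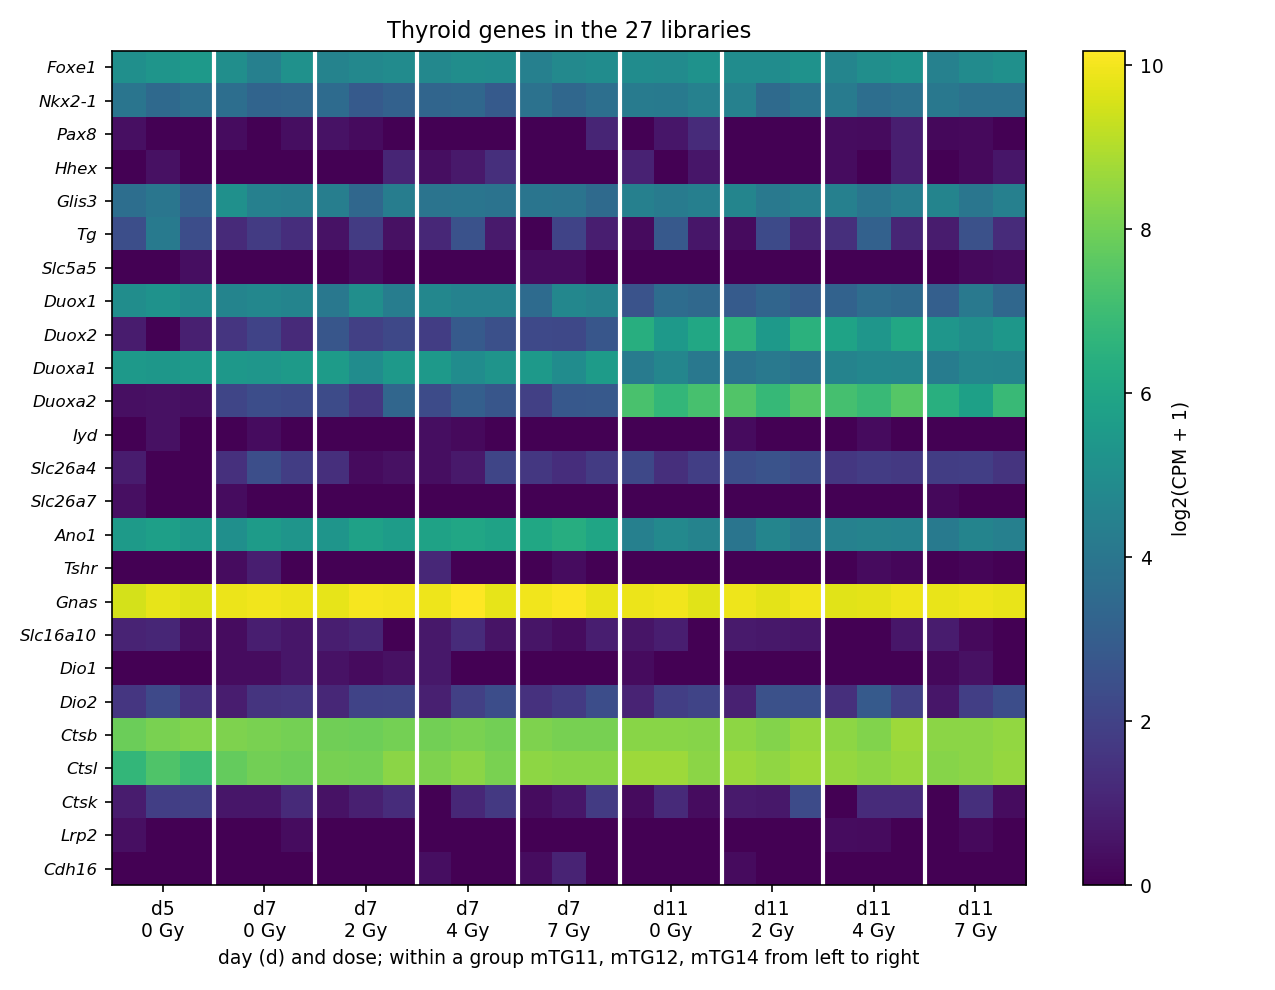
Log2(CPM + 1) (colour) of the 25 thyroid genes (vertical axis) in the 27 libraries (horizontal axis), with the 3 cultures side by side in each group. Foxe1 and Nkx2-1 have counts in every library, Pax8, Hhex, Slc5a5 and Tshr are near 0, and the middle column of each group (mTG12) is the highest for Tg.

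The 22 other thyroid genes fall into transcription factors, hormone synthesis, and the receptor, transport and deiodination. Between days 5 and 11 without irradiation 14 of the 22 could be tested, 7 rose, 3 fell and 4 did not pass, with a median log2 fold change of 0.37 against 0.06 over all genes. These 10 genes are set beside the 41.3% of all genes that passed. Glis3, a zinc finger factor that responds to thyrotropin signalling, rose by 0.94 (SE 0.25, adjusted p = 0.0108). Duox2, the oxidase that supplies hydrogen peroxide for iodination, rose from a mean of 0.515 to 64.3 CPM, and its maturation factor Duoxa2 from 0.337 to 136 CPM. Slc26a4, the anion transporter pendrin, rose from 0.23 to 2.64 CPM. The day 5 levels of these genes rest on few counts, so that their fold changes are not given. Duox1, Duoxa1 and Ano1, a chloride channel, fell by 1.70, 1.01 and 0.86 on the log2 scale. Of the genes of hormone release and receptor signalling, Ctsb, Ctsl and Gnas rose by 0.42, 1.71 and 0.33. Their means over all libraries were 302, 310 and 941 CPM, against 0.109 CPM for Tshr of the same list. Which cells the genes that rose come from was not tested. Between days 5 and 7 5 of the 14 rose and 0 fell, and between days 7 and 11 3 rose and 3 fell, where 21.6% and 21.2% of all genes passed.

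Against 0 Gy of the same day, genes of these lists passed only at day 7 after 7 Gy. At day 7 after 7 Gy 3 of 14 passed, beside 6.95% of all genes: Glis3 changed by -0.91 on the log2 scale (adjusted p = 0.0432), Ano1 higher by 0.82 (adjusted p = 0.00471) and Ctsl, a lysosomal protease, higher by 0.49 (adjusted p = 0.0127). At 2 and 4 Gy of day 7, and at each dose of day 11, 0 of the genes tested passed with edgeR's adjusted p. In the test over all doses of day 7, 1 of 14 passed, Ano1, beside 2.91% of all genes. For the 7 Gy response, day 11 minus day 7, 2 of 17 passed, Ano1 and Ctsl, both lower, beside 3.01% of all genes. Among cultures 7 of 17 passed, beside 9.41% of all genes, and of these Dio2, the activating deiodinase, was higher in mTG12 than in mTG11 by 1.50 (adjusted p = 0.000342) and for Duox2 the same log2 fold change was -0.62 (adjusted p = 0.00219).

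Across the 27 libraries the levels of the members were weakly correlated with each other. On log2(CPM + 1) with TMM scaling, Pearson's r was 0.10 between Foxe1 and Nkx2-1, 0.27 between Foxe1 and Tg, and -0.23 between Nkx2-1 and Tg, as a description over libraries that share groups and cultures. Among the 9535 genes whose mean was 10 CPM or more, the pattern most like Foxe1 was that of Mmp2, a matrix metalloprotease gene (r = 0.73), followed by Sfrp1 (0.66), Cers3 (0.66), Cdsn (0.65) and Crispld2 (0.65). The pattern most like Nkx2-1 was that of Mgst1, a microsomal glutathione transferase gene (r = 0.88), followed by Ankrd40 (0.85), Fetub (0.84), Slc6a9 (0.83) and Ces1d (0.82). For Tg it was Sox6, a transcription factor gene (r = 0.81), followed by Unc45a (0.79), Rpl29-ps5 (0.77), Cat (0.76) and Gm5093 (0.75). Rpl29-ps5 is a pseudogene name, and its counts may be shared with near-identical copies.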

How the data were processed

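Libraries were prepared by the authors with the Smart3SEQ protocol, which reads the 3′ ends of polyadenylated RNA, from 80 ng of RNA and sequenced as single reads of 75 bases on build GRCm39. STAR and edgeR are named in the submitters' processing notes, without versions. How reads were assigned to genes, with which annotation, and how molecular identifiers were treated is not given in the sources used here. What the authors deposited are estimated counts by gene symbol without normalization, and 56.3% of the nonzero values are whole numbers, so genes that share reads are uncertain. Genome positions come from GENCODE M39, in which all 3 members matched and 79.7% of the deposited symbols did.

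CPM were computed from library totals. For the tests the counts were rounded, and edgeR 4.0.16 (R 4.3.3) was run with TMM factors, the quasi-likelihood test, genes with at least 10 counts over the libraries of a fit and Benjamini-Hochberg adjustment over all of them, with 0.05 as the threshold. The days shared a fit of the 9 libraries at 0 Gy, the doses of a day a fit of 12, days at each dose and the 7 Gy difference in 1 fit of 24, and cultures in 1 fit of 27 with the group as a term. The fit was tested on simulated data. The members and gene lists were chosen with earlier results of these data known. Some genes of the thyroid lists are not reported here and do not enter their counts. Named genes are the members, list genes that passed, the defining thyroid genes, and per member the 5 genes of highest Pearson correlation; marker genes quoted without a test are named from their list.

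Labels give mice but columns give the identifiers called cultures here, so columns were placed by day and dose. The culture identifier recurs in every group. Deviations from group means correlated on average by 0.274 over the 108 same-culture pairs of libraries, 107 of them over 0.1, and by -0.137 over the 216 other pairs. The second mean largely follows from the first, since the deviations of a group sum to 0. The culture was used as a replicate block in an alternative. The smallest chi-square between libraries of a group was 3.63 per degree of freedom, and none was treated as deposited more than once. Whether replicates of a culture were separate wells is not stated, so p-values measure the spread between these libraries. Alternatives were DESeq2 1.42.0, no TMM factors, other filters, unrounded counts, other sets of libraries and leaving out each library, and, chosen after seeing the data, leaving out a whole culture and testing cultures in subsets of libraries.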

Additional observations from a re-analysis of the deposited data

Results flagged for a closer look

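Nkx2-1 was singled out because every culture moved one way with 7 Gy at day 7 and the other way at day 11. Relative to 0 Gy, it was higher in 3 of 3 cultures at day 7 and lower in 3 of 3 at day 11. The difference of the log2 fold changes, day 11 minus day 7, was -0.64 (standard error 0.33, unadjusted p = 0.0683, adjusted p = 0.408, edgeR), and with the culture as a replicate block it was -0.64 (unadjusted p = 0.0210, adjusted p = 0.187), so it did not pass in either fit. Both responses are taken against the 0 Gy libraries of their own day and share no library.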

How the results depend on the processing

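Of the 1231 alternative values of the 57 member results, 1149 kept their side of the threshold and, where the test has one, their direction. The tests for any dose or any culture have no direction. Of the 55 values that changed sign, 0 had passed the threshold. In the dose comparisons 0 of 436 alternatives passed (smallest adjusted p 0.182). Without TMM factors the median gene shifted by -0.14 (log2) in the comparisons with day 5 and by at most 0.05 in the others. On TMM-scaled CPM 0 of the 27 group means moved by more than 1 SD. Depth limits Tg most, with 8 libraries at 3 counts or fewer. DESeq2 gave no adjusted p for Tg at 2 and 4 Gy of day 7. The cause of the changes below was not tested.

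For day 11 against day 5, Tg passed with the replicate block (-1.83), with no filter on low counts (-1.69) and without culture mTG12 (-3.26), and when 1 library was left out it ran from -4.15 to -0.81. Nkx2-1 did not pass without mTG14 (0.60). Tg between days 5 and 7 passed with the replicate block (-2.04, adjusted p = 0.00495), with no filter on low counts, with only the groups compared and with DESeq2 (-2.05, -2.07 and -2.15), and the block changed no call of Foxe1 or Nkx2-1. The culture test did not pass at 0 Gy alone for Foxe1 (adjusted p = 0.358) or Nkx2-1 (0.774), nor with DESeq2 for Nkx2-1 (0.0565), and at 0 Gy alone Foxe1 in mTG12 against mTG11 was -0.15.

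The other values that changed sign, none of which passed before or after, were these log2 fold changes. Foxe1 was -0.022 for days 7 to 11 without mTG12, 0.052 and 0.060 for 4 Gy at day 7 without mTG11 or mTG14, and 0.0067 for 4 Gy at day 11 without mTG11. For 2 Gy at day 11 Foxe1 was 0.017 without TMM, 0.00069 without mTG11 and 0.042 without mTG14. The 7 Gy difference between days for Foxe1 was -0.00034 with no filter, -0.017 with at least 1 CPM in 3 libraries, -0.026 in only the groups compared, -0.079 and -0.054 without mTG11 or mTG14, and -0.016 with DESeq2. Tg without mTG12 was -1.80 for days 7 to 11, -0.68 for 4 Gy at day 7, 0.56 for 2 Gy at day 11 and 1.25 for 7 Gy at day 11. For 7 Gy at day 11 Tg was also 0.019 without TMM, 0.0073 with no filter, 0.0077 with the replicate block and 0.021 with all 27 libraries. The 7 Gy difference between days for Tg was -0.050 without mTG11.

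With 1 library left out in turn, Foxe1 ran from -0.090 to 0.29 for days 7 to 11, -0.26 to 0.11 for 4 Gy at day 7, -0.095 to 0.10 for 2 Gy and -0.18 to 0.041 for 4 Gy at day 11, -0.0049 to 0.28 for days 7 to 11 at 7 Gy, and -0.20 to 0.21 for the 7 Gy difference between days. Tg ran from -2.08 to 0.94 for days 7 to 11, -0.96 to 0.80 for 4 Gy and -2.06 to 0.14 for 7 Gy at day 7, and -1.89 to 1.99, -0.73 to 3.12 and -1.20 to 2.44 for 2, 4 and 7 Gy at day 11. Between days 7 and 11 Tg ran from -0.98 to 2.06 at 2 Gy, -0.72 to 2.03 at 4 Gy and -0.34 to 2.45 at 7 Gy, and its 7 Gy difference between days from -0.73 to 2.92.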
